A study of Mus musculus with 4 samples.

Results

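Large peritoneal macrophages (LPMs) share the peritoneal cavity with B cells, T cells, NK cells, mast cells, eosinophils and neutrophils. To see which chromatin at genes of those other lineages was called open in LPM libraries, 43 lineage marker genes were taken, of 24963 curated RefSeq genes on the autosomes. They were 11 B cell genes, 14 T cell genes, 6 NK and cytotoxic cell genes, 5 mast cell genes and 7 granulocyte genes. A region belonged to a gene when the transcription start site (TSS) of that gene was nearest to its midpoint or when it overlapped the gene body. This gave 115 of the 70744 regions obtained by merging the peaks of all libraries.

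ATAC-seq marks open chromatin by the cuts of the Tn5 transposase. The libraries came from 40000 sorted LPMs each, of C57BL/6 mice at 9 weeks of age, and all belonged to library batch 1. The genotypes compared were Rxrab fl/fl, called control here (2 libraries, replicates 1 and 3), and LysMCre+ Rxrab fl/fl, called Cre+ (2 libraries, replicates 1 and 2). Every mouse carried floxed alleles of both retinoid X receptor genes, Rxra and Rxrb, and only Cre+ mice carried the Cre recombinase. LysM-Cre acts in the myeloid lineage, which takes in neutrophils and not lymphocytes. Deletion in those cells was not measured here, as the libraries were made from sorted LPMs. Per the methods of the study, LPMs were sorted as CD45+ B220- CD11b+ CD115+ F4/80hi MHCIIlo cells. This gate leaves out B220+ B cells, and also cells of any lineage that lack CD11b, CD115 or high F4/80. The labels do not say whether the 2 libraries of a genotype came from separate mice, so the p-values below measure only the spread between these libraries, which may be technical.

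The markers act at different steps of lineage identity. Cd79b and Cd22 encode parts and partners of the B cell receptor, Pax5 and Ebf1 are the transcription factors that set the B cell programme, and the CD3 chains, Cd247, Lck and Zap70 carry the T cell receptor signal. Gzma, Gzmb and Prf1 encode contents of cytotoxic granules, and Fcer1a and Ms4a2 encode chains of the high-affinity IgE receptor of mast cells. Epx and Prg2 encode eosinophil granule proteins, and S100a8, S100a9 and Ly6g neutrophil products. Several are shared between lineages: Cd5 marks T cells and also the B-1a cells of the peritoneal cavity, and S100a8 and S100a9 are made by monocytes as well as neutrophils.

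The libraries differed in how many peaks were called. There were 38048 and 16097 peaks in control replicates 1 and 3, and 65421 and 55581 in Cre+ replicates 1 and 2. The weakest peak called had 6 to 8 tags at its summit, and a region with no call may still hold tags below that level. The number of calls in a library therefore moved with genotype, and its part in the differences of calls below was not tested. As a check of the label, 15 of 15 macrophage genes had at least 1 region in every library, and 12 to 14 of them had a promoter-TSS region (from 1 kb upstream to 200 bp downstream of the TSS).

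The sequences below are those of the strongest promoter-TSS region of each lineage and of the strongest region elsewhere. Strongest here and below means the highest mean log2 fold enrichment over the libraries that called the region, leaving out libraries without a call. They run 5′ to 3′ on the strand of the gene (RefSeq, mm10), within 100 bp of the highest summit, and bases of curated exons were left out. Capitals mark matches to the searched motifs.
Bank1 promoter-TSS, chr3:136326067-136326126, - strand: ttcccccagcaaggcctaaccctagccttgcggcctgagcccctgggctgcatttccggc
Cd5 promoter-TSS, chr19:10738975-10739070, - strand: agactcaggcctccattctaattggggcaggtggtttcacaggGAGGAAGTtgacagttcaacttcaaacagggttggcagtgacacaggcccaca
Tbx21 promoter-TSS, chr11:97115880-97116080, - strand: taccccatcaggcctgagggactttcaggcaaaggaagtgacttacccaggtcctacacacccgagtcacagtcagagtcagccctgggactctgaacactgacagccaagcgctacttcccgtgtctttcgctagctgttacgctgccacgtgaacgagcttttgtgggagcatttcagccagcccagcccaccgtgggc
Hdc promoter-TSS, chr2:126618679-126618803, - strand: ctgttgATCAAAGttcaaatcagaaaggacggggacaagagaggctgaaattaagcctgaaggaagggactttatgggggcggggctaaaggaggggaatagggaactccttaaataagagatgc
S100a8 promoter-TSS, chr3:90668882-90669070, + strand: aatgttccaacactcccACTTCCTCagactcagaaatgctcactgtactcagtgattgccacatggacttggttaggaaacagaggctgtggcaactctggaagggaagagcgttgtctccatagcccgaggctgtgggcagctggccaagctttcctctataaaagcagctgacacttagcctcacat
Bank1 intron, chr3:136252862-136253062, - strand: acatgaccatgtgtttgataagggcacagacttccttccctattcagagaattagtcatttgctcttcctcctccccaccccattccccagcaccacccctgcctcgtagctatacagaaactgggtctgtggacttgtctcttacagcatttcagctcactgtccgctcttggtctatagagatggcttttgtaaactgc
Klrb1c upstream region, chr6:128803116-128803316, - strand: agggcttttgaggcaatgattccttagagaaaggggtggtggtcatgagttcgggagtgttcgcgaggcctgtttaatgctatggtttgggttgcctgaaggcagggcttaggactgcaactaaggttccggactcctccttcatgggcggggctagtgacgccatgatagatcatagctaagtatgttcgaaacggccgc
Hdc intron, chr2:126607561-126607761, - strand: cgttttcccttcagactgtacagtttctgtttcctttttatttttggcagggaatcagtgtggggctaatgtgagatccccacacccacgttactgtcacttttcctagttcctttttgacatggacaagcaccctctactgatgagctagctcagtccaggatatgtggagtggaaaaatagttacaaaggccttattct
S100a9 upstream region, chr3:90710161-90710361, - strand: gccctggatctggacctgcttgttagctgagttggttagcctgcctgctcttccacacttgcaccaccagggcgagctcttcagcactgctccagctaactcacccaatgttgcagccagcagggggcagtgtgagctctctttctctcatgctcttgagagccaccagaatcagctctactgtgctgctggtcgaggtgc
The strongest T cell region lay within an exon of Cd3d and is not shown. The 9 motifs were searched on both strands. The PU.1 motif GAGGAAGT was found in the Cd5 and S100a8 promoters and the TCF/LEF motif CTTTGAT in the Hdc promoter. The other printed stretches held no match. Each motif was searched as a fixed pattern, so a stretch without a match may still hold a site that differs from it.

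Of the 43 genes, 34 (79.1%) had at least 1 region in at least 1 library, close to the share over all coding genes (79.4%), which is also the background for the counts by lineage below. The 9 genes without any region were Cd79a, Cd3g, Cd8a, Cd8b1, Gzma, Cpa3, Ms4a2, Fcer1a and Epx. These include the genes of the B cell receptor chain CD79a, both chains of CD8, granzyme A, the listed IgE receptor chains (Fcer1a and Ms4a2) and eosinophil peroxidase. In control replicate 1, 22 of the 43 genes (51.2%) had a region, where 69.0% of all coding genes had one. In control replicate 3 there were 7 (16.3%, against 50.6% of coding genes). In Cre+ replicate 1 there were 33 (76.7%, against 78.6%), and in replicate 2 there were 29 (67.4%, against 75.3%). The share of marker genes lay below that of coding genes in all 4 libraries, by the smallest margin in Cre+ replicate 1.

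At promoters the marker genes were further below the background. A promoter-TSS region was called at 7, 1, 11 and 9 of the 43 genes in control replicates 1 and 3 and Cre+ replicates 1 and 2. These are 16.3%, 2.33%, 25.6% and 20.9% of the genes, where 50.3%, 37.3%, 56.3% and 53.7% of coding genes had such a region. Only Bank1 had one in all 4 libraries.

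**Figure D1:**
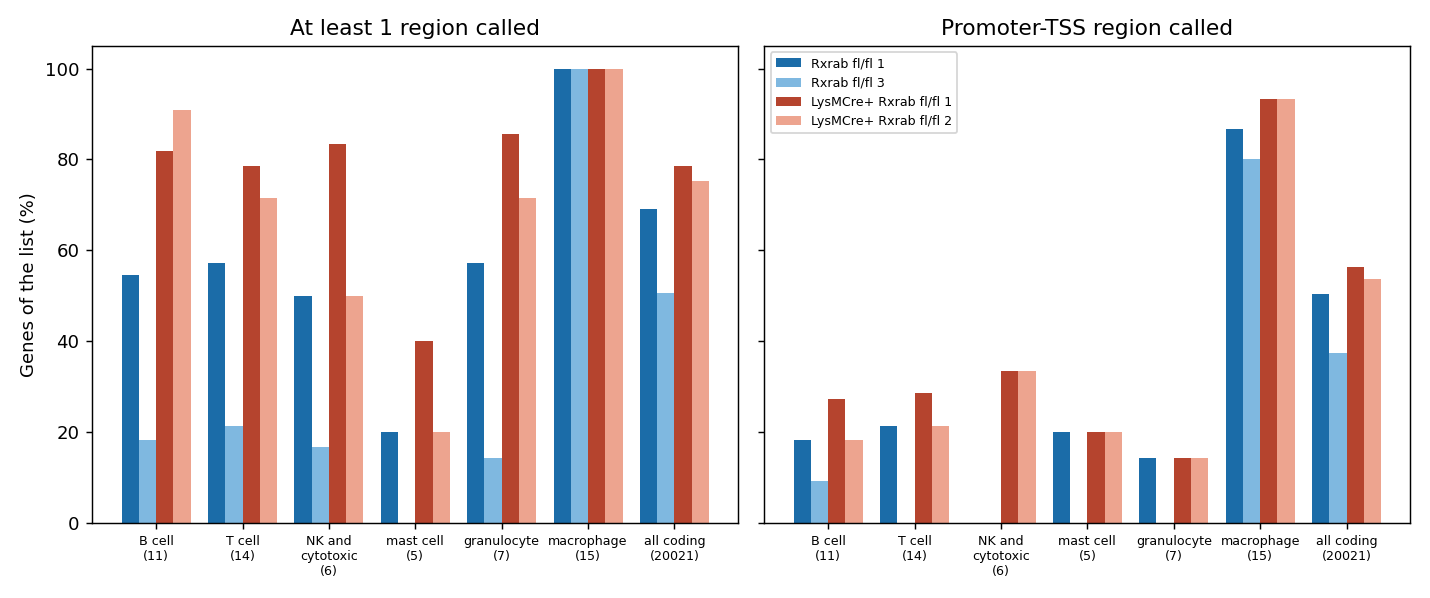
Percent of the genes of each list with at least 1 called region (left) and with a called promoter-TSS region (right), with 1 bar for each library and the number of genes in brackets. The macrophage genes reach 100% on the left in every library, and the marker lists stay at or below 33.3% on the right.

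Of the B cell genes, 10 of 11 had a region, and 30 regions were found in all. Pax5 had 2 intronic regions, both with another gene's TSS nearer. One of them, 6173 bp inside the gene, was called in control replicate 1 and both Cre+ libraries, with fold enrichments of 7.58, 6.95 and 6.49. Fold enrichment is the tag pileup at a summit over the local background, in a window of fixed width. It moves with the background as well as the tags, so a rank by it is not a rank by tags. In Cre+ replicate 1, a fold enrichment of 14.1 went with 142 tags 11.9 kb upstream of Tbx21. A value of 13.9 went with 57 tags in an intron of Hdc.

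Bank1, which encodes an adaptor of B cell receptor signalling, had 8 regions, the most of the B cell genes. At its promoter (chr3:136325732-136326277) the fold enrichment was 16 and 8.25 in control replicates 1 and 3, and 22.7 and 18 in Cre+ replicates 1 and 2. Both Cre+ libraries were above both control libraries, by 0.82 on the log2 scale as measured and by 0.45 after each library was centred on its median (limma standard error 0.21, adjusted p = 0.22). The log2 changes given with a limma p below are likewise after centring. Among all regions of the same library within 1 kb of a TSS this value stood at the 65.5th, 45th, 93.3rd and 91.9th percentile. The Bank1 region with the highest mean over the libraries that called it lay in an intron 73.1 kb from the TSS. It had fold enrichments of 20 in control replicate 1 and 20.6 and 17.3 in Cre+, and was not called in control replicate 3. In both Cre+ libraries the promoter was higher than this intronic region.

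Ebf1 and Cr2 had the other B cell promoter regions. The Ebf1 region, 903 bp upstream of the TSS, had fold enrichments of 11.7 in control replicate 1 and 12 and 10.4 in Cre+, with no call in control replicate 3. Cr2, the complement receptor of mature B cells, had its promoter called in Cre+ replicate 1 alone, at 8.6. A region 65 kb upstream of Cr2 was called in all 4 libraries, at 16.8 and 4.37 in control and 16.8 and 13 in Cre+. Those groups overlapped, and the log2 change was 0.42 (adjusted p = 0.399 from limma).

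Among B cell regions called in both Cre+ libraries and in neither control library, the strongest lay 15.3 kb upstream of Cd79b (11.5 and 7.61), in an exon of Cd22 (11.1 and 7.83) and in an intron of the B cell kinase gene Blk (10.3 and 7.87). All 3 Blk regions had this pattern, which was that of 23.3% of the B cell regions and 22.8% of all regions. Ms4a1, which encodes CD20, and Fcer2a, which encodes CD23, had 2 regions and 1 region, each called in a single Cre+ library. Pou2af1, which encodes a coactivator of B cells, had 3 regions, called 1, 0, 2 and 2 times in control replicates 1 and 3 and Cre+ replicates 1 and 2.

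Of the T cell genes, 11 of 14 had a region, with 47 regions in all. Cd3g, Cd8a and Cd8b1 had none, and Cd3e had 1, called in Cre+ replicate 1 alone at 4.73. The strongest T cell region covered an exon at the 3′ part of Cd3d (chr9:44986268-44986877), 4786 bp from its TSS. It reached 20.8 and 9.6 in control and 24.6 and 18.2 in Cre+, groups that overlapped (log2 change 0.22, adjusted p = 0.559 from limma). No promoter-TSS region was called at Cd3d in any library.

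Promoter regions were called at Cd2, Cd5, Tcf7 and Lef1. Cd5 had 1 region in all, at its promoter, with fold enrichments of 5.9 in control replicate 1 and 13.1 and 7.42 in Cre+. The promoter of Cd2, an adhesion receptor of T and NK cells, had 5.41 in control replicate 1 and 11 and 5.32 in Cre+. For Tcf7, a transcription factor of T cells, the values were 5.76, 7.19 and 3.6 in the same order. Cre+ replicate 1 had the highest value at these 3 promoters, while replicate 2 was below control replicate 1 at Cd2 and Tcf7. None of the 3 was called in control replicate 3. Lef1, which encodes a factor related to that of Tcf7, had its promoter at an internal TSS called in Cre+ replicate 1 alone, at 5.03.

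Lef1, Zap70 and Thy1 held most of the T cell regions that control libraries lacked. Lef1 had 9 regions, of which 0 were called in control, 9 in Cre+ replicate 1 and 4 in replicate 2. For Zap70 the corresponding numbers were 8 regions, 1 in control replicate 1, 8 and 5. Thy1 had 5 regions, called 0, 0, 5 and 2 times. Of the 47 T cell regions, 31.9% were called in both Cre+ libraries only and 38.3% in Cre+ replicate 1 alone. Over all regions these shares were 22.8% and 18.3%. Lef1 and Thy1 had no region when the same number of peaks was taken from every library. The strongest T cell regions called in both Cre+ libraries only were 36.3 kb downstream of the Zap70 TSS (17.5 and 11.3), 16.9 kb downstream of that of Cd2 (10.7 and 8.47) and 50.1 kb upstream of Thy1 (9.46 and 7.7). Cd247 had 6 regions and a region called in all libraries in an intron, at 6.13 and 5.82 in control and 8.45 and 6.38 in Cre+. Both Cre+ values were the higher before centring, and the log2 change after centring was -0.07 (adjusted p = 0.901 from limma). Cd2 also had a region called in all libraries, 5976 bp upstream, at 13.4 and 5.15 in control and 13.2 and 8.95 in Cre+, so the groups overlapped (log2 change 0.02, adjusted p = 0.97 from limma). The proximal kinase gene Lck had 3 regions, called 1, 0, 3 and 2 times in control replicates 1 and 3 and Cre+ replicates 1 and 2, and Bcl11b, a factor of T cell commitment, had 3, called 1, 0, 3 and 1 times.

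Of the NK and cytotoxic cell genes, 5 of 6 had a region, with 19 regions in all. The granule genes had few calls: Gzma had none, and the 2 regions of Gzmb and 3 of Prf1 were called in Cre+ replicate 1 alone. Klrb1c, which encodes the NK1.1 receptor, and Tbx21, which encodes the factor T-bet, had promoter regions in both Cre+ libraries and in neither control library. Their fold enrichments were 10.5 and 5.29 at Klrb1c and 11 and 5.37 at Tbx21, higher in replicate 1 than in replicate 2 at each. The strongest region of this lineage lay 14.6 kb upstream of Klrb1c. It had 20.5 and 11.2 in control and 17.6 and 14.4 in Cre+, so the groups overlapped (log2 change -0.29, adjusted p = 0.414 from limma). A second Klrb1c region in all libraries, 24.3 kb downstream of the TSS, had 15.4 and 6.85 against 13.5 and 12.3 (log2 change -0.04, adjusted p = 0.928 from limma). Ncr1 had 2 regions, each called in all libraries but control replicate 3.

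Of the mast cell genes, 2 of 5 had a region. Cpa3, Ms4a2 and Fcer1a had none in any library, and Kit, the stem cell factor receptor, had 2, 191.7 and 192.6 kb upstream and called in Cre+ replicate 1 alone. The remaining 9 of the 11 mast cell regions were at Hdc, which encodes the enzyme that makes histamine. The Hdc promoter had fold enrichments of 5.86 in control replicate 1 and 9.62 and 11.7 in Cre+. Its strongest region, in an intron, had 7.33, 13.9 and 11 in the same libraries. Neither was called in control replicate 3, where no mast cell region was called. Called in both Cre+ libraries only were an exonic Hdc region (12.8 and 8) and an intronic one (6.97 and 4.49).

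Of the granulocyte genes, 6 of 7 had a region, with 8 regions in all. S100a8 had the strongest, at its promoter (chr3:90668764-90669375), with fold enrichments of 14 in control replicate 1 and 16.6 and 16.1 in Cre+, and no call in control replicate 3. S100a9, its partner in the calprotectin complex, had no promoter region and 1 region 14.6 kb upstream, at 7.75, 19.1 and 13.4 in the same libraries. Siglecf, the eosinophil lectin, had 2 regions called in all libraries. The intronic one had 8.52 and 6.78 in control and 10.7 and 10.4 in Cre+, and the one 1486 bp upstream had 8.79 and 3.6 against 9.56 and 9.95. At both, the Cre+ libraries were above the control libraries before centring, with log2 changes after centring of 0.10 (adjusted p = 0.828 from limma) and 0.43 (adjusted p = 0.289 from limma). The eosinophil gene Prg2 had 1 region, 12.9 kb upstream, called in all but control replicate 3. Ly6g had 1 region, called in Cre+ replicate 1 alone at 6.45, and the myeloperoxidase gene Mpo had 1 region, called in Cre+ only (9.03 and 8.18).

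**Figure D2:**
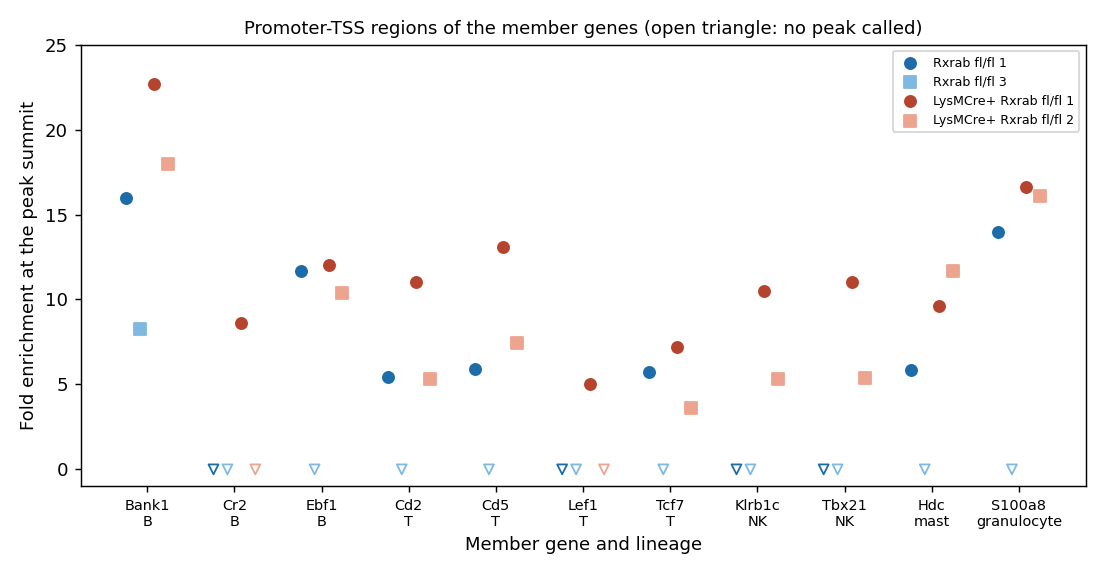
Fold enrichment at the summit of each promoter-TSS region of a marker gene, with 1 point for each library and an open triangle on the zero line where no peak was called. Bank1 alone has 4 filled points, and the control replicate 3 point there is the lowest, at 8.25.

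**Figure D3:**
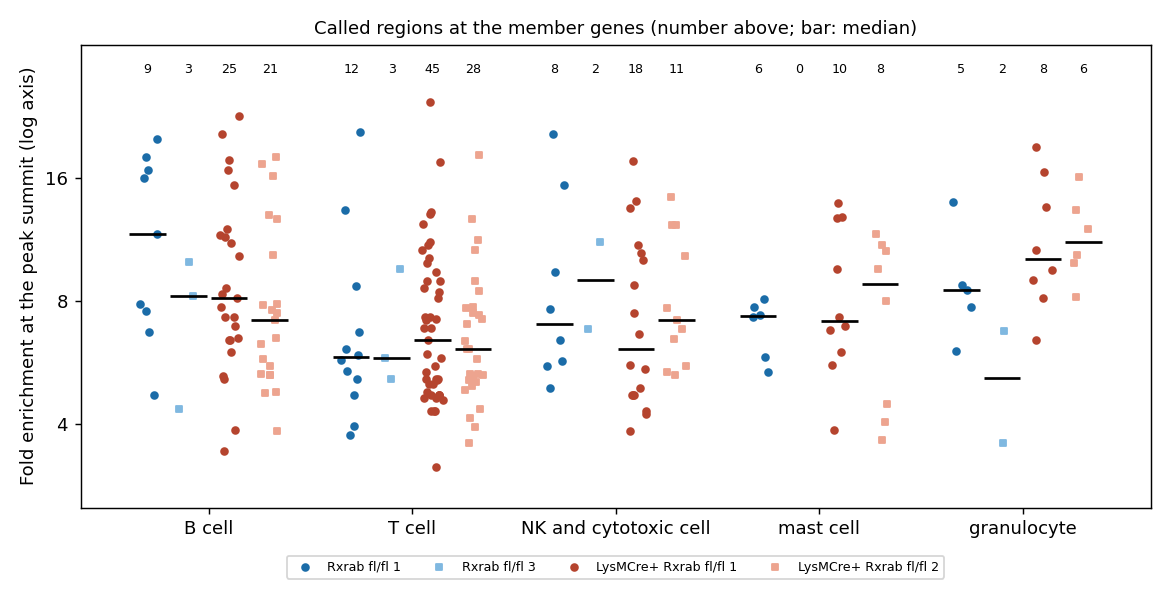
Fold enrichment (log axis) of every called region at the marker genes by lineage and library, with the number of regions above and the median as a bar. The number of called regions varies far more between libraries than the median, from 3 to 45 for T cell genes with medians of 5.82 to 6.45.

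The genotypes were compared by calls. Of the 115 regions, 27 (23.5%) were called in both Cre+ libraries and in neither control library, and 0 in both control libraries only. Over all regions these shares were 22.8% and 0.0452%, so the marker genes were near the background. Calls in Cre+ replicate 1 alone made up 39 regions (33.9%), against 18.3% of all regions. Calls in all 4 libraries made up 10 (8.7%, against 21.5%), and calls in all but control replicate 3 made up 28 (24.3%, against 25.5%). At the macrophage genes, 36 of 117 regions (30.8%) were called in all 4 libraries and 19 (16.2%) in Cre+ replicate 1 alone. In Cre+ replicate 1, the summit pileup of marker regions that both control libraries lacked had a median of 15 tags (n = 66), where all such regions had a median of 17. Leaving out control replicate 1 raised the 27 regions to 55 of 115, where 49.2% of all regions then had this pattern, and leaving out Cre+ replicate 2 raised them to 66 of 106, against 44.3%.

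**Figure D4:**
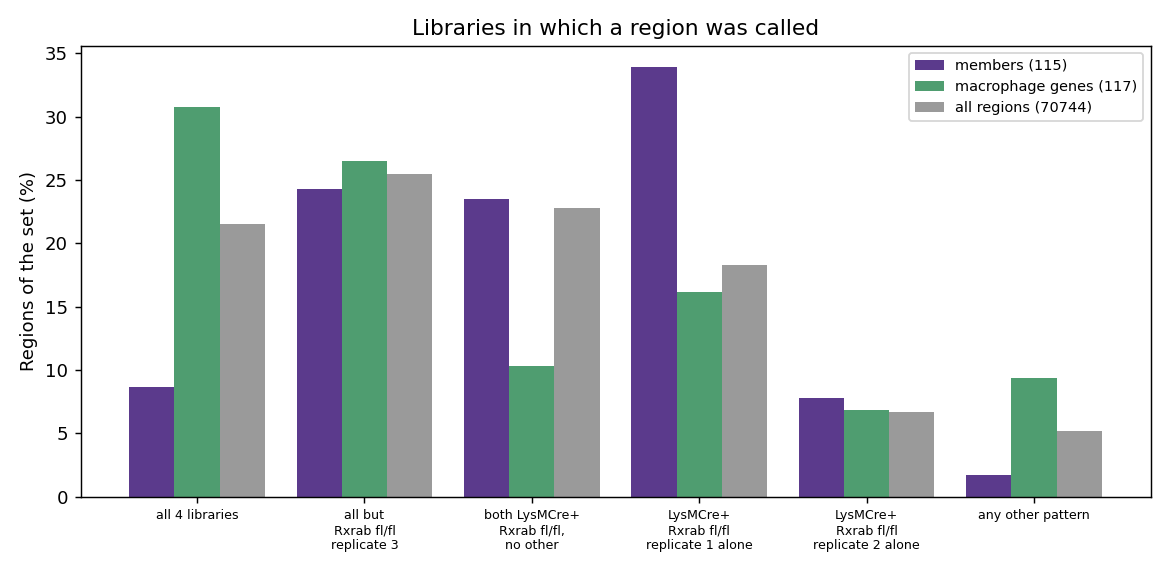
Percent of regions with each pattern of calls over the 4 libraries, for the marker genes, the macrophage genes and all regions, with the number of regions in brackets. The marker genes have the tallest bar for Cre+ replicate 1 alone (33.9%) and the shortest for all 4 libraries (8.7%).

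With the same number of peaks taken from every library (the 16097 with the highest −log10 q), the marker genes held 18 regions at 13 genes. They held 10 peaks in each control library and 14 in each Cre+ library. By lineage, the B cell genes held 4, 3, 5 and 5 of them in control replicates 1 and 3 and Cre+ replicates 1 and 2, the T cell genes 2, 3, 3 and 2, the NK and cytotoxic cell genes 3, 2, 3 and 3, the mast cell genes 0, 0, 1 and 1, and the granulocyte genes 1, 2, 2 and 3. In all 4 libraries 6 of the 18 regions were called, at Cr2, Bank1, Cd3d and Klrb1c, where 46.1% of all 22300 regions at this number were. Called in both Cre+ libraries only were 3 of them, at Cd79b, Hdc and S100a9, against 7.82% of all regions at this number. The macrophage genes held 33, 37, 26 and 33 peaks at this number.

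The share of a library's peaks at the marker genes was 0.108% and 0.0621% in control and 0.162% and 0.135% in Cre+. Both Cre+ values were above both control values, a difference of 0.0635 percentage points (two-sided exact permutation test, p = 0.333, the smallest that 2 against 2 libraries allow). At equal peak numbers the difference was 0.0248 percentage points. The same order held for the B cell genes (0.0237% and 0.0186% against 0.0382% and 0.0378%) and the T cell genes (0.0342% and 0.0186% against 0.0688% and 0.0522%), each with an adjusted p of 0.556 over the 5 lineages in the exact permutation test. For NK and cytotoxic cell genes and mast cell genes the groups overlapped. At equal peak numbers the T cell shares did not differ in the mean. Granulocyte genes had 0.0131% and 0.0124% against 0.0122% and 0.0108%, lower in Cre+, an order that turned at equal peak numbers (by 0.00621 percentage points, higher in Cre+) and at a q value of 0.01 (by 0.00184). The second B cell list did not have the order of the first, with 0.0604% and 0.0497% in control and 0.0566% and 0.0594% in Cre+. Both Cre+ libraries were above both control libraries in the second T cell list (0.0526% and 0.0124% against 0.0718% and 0.063%). So they were in the second mast cell list (0.0158% and 0% against 0.0275% and 0.0252%). The second granulocyte list was also higher in Cre+ (0.0526% and 0.0311% against 0.0535% and 0.054%), unlike the first. In the second NK and cytotoxic cell list the groups overlapped. Mesothelial genes had 0.00526% and 0.00621% in control and 0.0183% and 0.0216% in Cre+, and dendritic cell genes 0.0368% and 0.0124% against 0.0397% and 0.0432%. The macrophage genes had 0.21% and 0.23% in control and 0.157% and 0.167% in Cre+. A larger share of cells of another lineage, more open chromatin per cell and the larger number of calls in Cre+ cannot be told apart in such bulk libraries.

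The 10 marker regions called in all 4 libraries could be compared by level. None passed the limma threshold (adjusted p under 0.05 and log2 change past 1) on fold enrichment, where 0.0855% of 15199 regions did in either direction, and none on the summit pileup, where 6.79% did. At an unadjusted p under 0.05, 1 of the 10 was counted on fold enrichment, the Bank1 promoter, where 22.0% of all tested regions were, and 0 on the pileup, where 32.5% were. The log2 changes ranged from -0.29 to 0.45 with a median of 0.06, and 6 of the 10 were above zero. The median over all tested regions was -0.09. On the pileup, which is not divided by the local background, the median of the 10 was -0.185 and 3 were above zero.

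Further genes of the same lineages were examined as second lists. Whether LPMs themselves use these genes was not tested, so a region called at them need not come from another cell type. In control replicates 1 and 3 and Cre+ replicates 1 and 2, a region was called at 7, 6, 9 and 9 of 11 B cell genes, 7, 2, 10 and 11 of 12 T cell genes, 2, 1, 3 and 2 of 9 NK and cytotoxic cell genes, 3, 0, 4 and 4 of 8 mast cell genes and 7, 5, 12 and 12 of 13 granulocyte genes. Of all coding genes, 69.0%, 50.6%, 78.6% and 75.3% had a region. The NK and cytotoxic cell list (22.2%, 11.1%, 33.3% and 22.2%) and the mast cell list lay below this in every library. The B cell, T cell and granulocyte lists lay above it in both Cre+ libraries. In control they lay below it, except the B cell list in replicate 3 (54.5%). The NK receptor genes Klrk1 and Klrd1 had no region, nor did the mast cell protease genes Cma1 and Mcpt4. In at least 1 library, 3 of the 9 NK and cytotoxic cell genes and 4 of the 8 mast cell genes had a region. Among them, Ccl5 had 5 regions, called 5, 2, 5 and 5 times. The promoters of Hpgds (9.48, 13.3 and 10.8) and Gata2 (6.1, 11.5 and 8.22) were called in control replicate 1 and both Cre+ libraries. On the pileup, 1 of the 5 second-list granulocyte regions called in all libraries passed the threshold, where 6.79% of all tested regions did. No region of the other second lists passed. The region that passed lay 21.5 kb upstream of the granulocyte factor gene Cebpe. Its pileup was 45 and 15 tags in control and 21 and 18 in Cre+, groups that overlapped. The log2 change was -0.41 before centring and -1.25 after it (adjusted p = 0.0318 from limma), and the region did not pass on fold enrichment (-0.88, adjusted p = 0.0683 from limma). Among other cells of the cavity, mesothelial genes had a region at 2, 1, 5 and 5 of 8 genes, and 0 of their promoters were called. Dendritic cell genes had a region at 7, 2, 8 and 7 of 8 and a promoter-TSS region at 3, 1, 3 and 3. In the second lists, promoter-TSS regions were called at 4, 1, 5 and 5 B cell genes and 1, 0, 1 and 3 T cell genes. They were called at 0, 0, 1 and 0 NK and cytotoxic cell genes, 2, 0, 2 and 2 mast cell genes and 3, 0, 5 and 4 granulocyte genes. All these promoter shares lay below those of all coding genes (50.3%, 37.3%, 56.3% and 53.7%).

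The marker regions were also described by position and sequence, without a test. Of the 115, 51 were upstream of the gene, 32 in introns, 14 downstream, 11 in promoter-TSS and 7 in exons, and at 9 of them another gene had the nearer TSS. Within 1 kb of any TSS lay 13% of them, against 22.5% of all regions, and the median distance was 15.1 kb against 12.4 kb. They were 326 bp wide in the median against 383 bp, and the median GC content around the summit was 51.7% in both. In the 201 bp around the summit, the PU.1 motif was found in 9.57% of marker regions and 9.3% of all regions, the C/EBP motif TTGCNNAA in 13% and 11.1%, the RUNX motif TGTGGT in 22.6% and 17.1% and the AP-1 motif TGANTCA in 11.3% and 12.7%. The EBF motif TCCCNNGGG was found in 0 of 30 B cell regions and 3.89% of all regions. The TCF/LEF motif was found in 2 of 47 T cell regions and 1.81% of all regions. The GATA motif AGATAA was found in 4.35% and 6.44%, the CTCF motif AGGGGGCGC in 3.48% and 1.18%, and the ETS motif CCGGAAGT, which shares the core GGAA with that of PU.1, in 0.87% and 1.65%.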

How the data were processed

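ATAC-seq peaks of 4 LPM libraries were analysed. Per the submitters' processing notes and the study's methods, the authors trimmed reads (cutadapt 1.7), aligned them to mm10 (Bowtie2, listed as 4.1.2), dropped duplicates together with mitochondrial, X and Y reads, and called peaks separately in each library (MACS2 2.1.1). The deposited peak values are a fold enrichment, the ratio of tag pileup to background, with −log10 p and −log10 q values at the summit. Read totals were not used here, so depth is known only through peak numbers and summit pileups, and the authors' edgeR test could not be repeated. ATAC-seq samples that clustered apart from their group had been left out by the authors, which can lower the spread between replicates.

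The markers and lists were chosen with earlier results of these data known. Peaks sharing at least 1 bp were merged, the strongest standing for its library, and placed on 43783 curated RefSeq transcripts (GRCm38.p6, the assembly of mm10). Summit pileups were solved from fold enrichment and p value. Log2 fold enrichment was centred on library medians and compared (LysMCre+ Rxrab fl/fl minus Rxrab fl/fl) with limma 3.58.1 over all regions called in every library, with Benjamini-Hochberg adjustment. Shares of peaks were compared by exact permutation. The scripts were tested on simulated data. Values in every library are given for marker promoter-TSS regions, the strongest region of each lineage, regions past the limma threshold, and the 3 strongest of each lineage called in 1 genotype only; other regions and the Cebpe region were named after their values were seen. Alternatives were a q value of 0.01, equal peak numbers, summits, a larger overlap, each library left out, nearest TSS only, other promoter windows and other limma inputs.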

Additional observations from a re-analysis of the deposited data

How the results depend on the processing

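No paired analysis was possible because the genotypes share only replicate number 1. The count of 0 marker regions past the limma threshold held in every alternative, as did the count of 0 regions called in control only. In the main setting, 0.0855% of tested regions passed on fold enrichment and 0.0452% of all regions were called in control only. Counts of 0 among so few marker regions therefore say little about these genes. With equal peak numbers the regions fell from 115 to 18, those called in Cre+ only from 27 to 3, and the genes with a promoter-TSS region from 11 to 2, while the T cell share differed by 0. Requiring a region over the TSS itself left 7 genes. With each library left out, the regions ranged from 76 (without Cre+ replicate 1) to 115, and those in Cre+ only from 27 to 66. The difference in the share of peaks of 0.0635 percentage points ranged from 0.0407 to 0.0864 with a library left out and was 0.0248 at equal peak numbers. The mast cell share difference ranged from -0.00093 (without control replicate 3) to 0.0148 (without control replicate 1), and the granulocyte one turned to 0.00184 at a q value of 0.01 and to 0.00621 at equal peak numbers. The median log2 change of 0.062 became -0.185 on the pileup and 0.43 without centring (which moved the median of all regions from -0.09 to 0.28). It was 0.441 over the 40 marker regions tested among those called in at least 2 libraries, where the median of all regions was 0.261. Centring subtracts a median from each library, so leaving it out moved every region by the same amount. The fit over regions called in at least 2 libraries centred on other medians, which likewise moved the 10 regions alike. The cause of the change on the pileup was not tested. Of 50 alternative values for the 10 regions called in all libraries, 39 kept their direction. Without centring Cd247 became 0.30, Bank1 5.3 kb upstream 0.34, and the Klrb1c regions 0.33 and 0.074. With regions called in at least 2 libraries Cd247 became 0.19, Bank1 0.23 and Klrb1c 24.3 kb downstream 0.22. On the pileup Cd2 became -0.34, intronic Siglecf -0.074 and Cd3d -0.33, and with quantile normalization Bank1 became 0.005. None of these passed the threshold. The lowest summit pileup called was 6 to 8 tags, so absence of a call does not show closed chromatin.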
